A study of Mus musculus with 10 samples.

Results

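The genes described here are the nuclear-encoded genes of the mitochondrial respiratory chain and of ATP synthase. They were taken as all non-control probes of the array whose gene name starts with Nduf, Uqcr, Atp5, Cox4, Cox5, Cox6, Cox7, Cox8, or with Sdh followed by a, b, c or d. This gave 113 probes of 82 genes among 41174 probes, and 81 of these genes were among the 20088 genes tested. The exception was Cox8b, the heart, muscle and brown fat isoform of cytochrome c oxidase subunit 8, whose probe did not clear background anywhere. In all, 107 of the 113 probes passed the filter on dim probes. Of the tested genes, 35 encode subunits of complex I, 4 of complex II, 7 of complex III, 17 of complex IV and 15 of complex V. The other 3 match the names without being subunits. They are Ndufaf1, an assembly factor of complex I, Atp5s (now Dmac2l, known as factor B), and Cox4nb (now Emc8), a neighbour of Cox4i1 whose product belongs to a complex of the endoplasmic reticulum membrane. A gene with several probes is represented by its brightest probe.

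RNA came from the mouse embryonic stem cell line J1, harvested 96 hours (day 4) after transfection with siRNA. One group received non-targeting siRNA (NT) and the others received siRNA against Ino80, Ino80b, Ino80c or Ino80e, which encode the ATPase and 3 other subunits of the INO80 chromatin remodelling complex. There were 5 groups of 2 samples, called biological replicates in the design text, with 1 array per sample. The series asks how cells depleted of each subunit differ from NT cells, and all groups, controls included, were transfected with siRNA, with M15 medium at transfection and ESGRO medium otherwise. The labels used here do not say how many siRNAs were used per gene.

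The respiratory chain sits in the inner mitochondrial membrane. Complexes I and II pass electrons from NADH and succinate to ubiquinone, complex III passes them to cytochrome c, complex IV passes them to oxygen, and complex V (ATP synthase) uses the resulting proton gradient to make ATP. Complex II is also an enzyme of the tricarboxylic acid cycle and is the only one of these complexes with no subunit encoded by mitochondrial DNA. Embryonic stem cells are known for making much of their ATP by glycolysis while still respiring, and respiratory chain genes are commonly activated in the nucleus by NRF1, GABPA (NRF2) and YY1. YY1 is also known as a binding partner of the INO80 complex.

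Levels are log2 processed signals relative to the 75th percentile of the same array, so an array's value compares with the same probe on another array only. Depletion was measured by the array: the targeted transcript stood at 43.5% of its NT level for Ino80, 25% for Ino80b, 19.8% for Ino80c and 43.3% for Ino80e, with adjusted p of 0.00407, 0.0261, 0.00955 and 0.0815. Ino80b mRNA also stood at 46.4% and 38.1% of NT in the Ino80c and Ino80e groups (adjusted p 0.0878 and 0.0871). The share of probes well above background ran from 66.4% to 79.0% over the arrays, and no spot was saturated. All 11 embryonic stem cell markers on the array were well above background on every array. The NT arrays were alone on 1 slide, the Ino80 and Ino80b arrays shared another, and the Ino80c and Ino80e arrays shared the remaining one. Slide and knockdown therefore cannot be told apart in any comparison with NT, whereas Ino80 against Ino80b and Ino80c against Ino80e lie within a slide.

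The promoter letters of these genes are shown first, because they carry what the genes share beyond their names. RefSeq promoter windows (build GRCm38.p6, 250 bases before to 50 after the start) were found for 67 of the 82 genes, in 72 windows. Each was searched on both strands for GCGCA and GCGC with any 1 base between them (NRF1), and for CCGGAAG (GABPA) and AANATGGC (YY1), and no match of a motif overlapped a match of another in these windows. The NRF1 motif was found in 25% of the windows, against 4.6% of all 32851 mouse windows. The GABPA motif was found in 23.6%, against 8.86%, and the YY1 motif in 23.6%, against 6.05%. At least 1 of the 3 was present in 45 of the 72 windows (62.5%), against 17.4% of all windows. By complex the counts were small, and differences between complexes were not tested. In complex I, 12 of 33 windows held the YY1 motif, 8 the NRF1 motif and 4 the GABPA motif. In complex V, 6 of 17 windows held the NRF1 motif, 5 the GABPA motif and 4 the YY1 motif. In complex IV, 3 of 13 held the GABPA motif, 1 the NRF1 motif and 1 the YY1 motif. A match describes letters and is not evidence of a bound site.

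**Figure D1:**
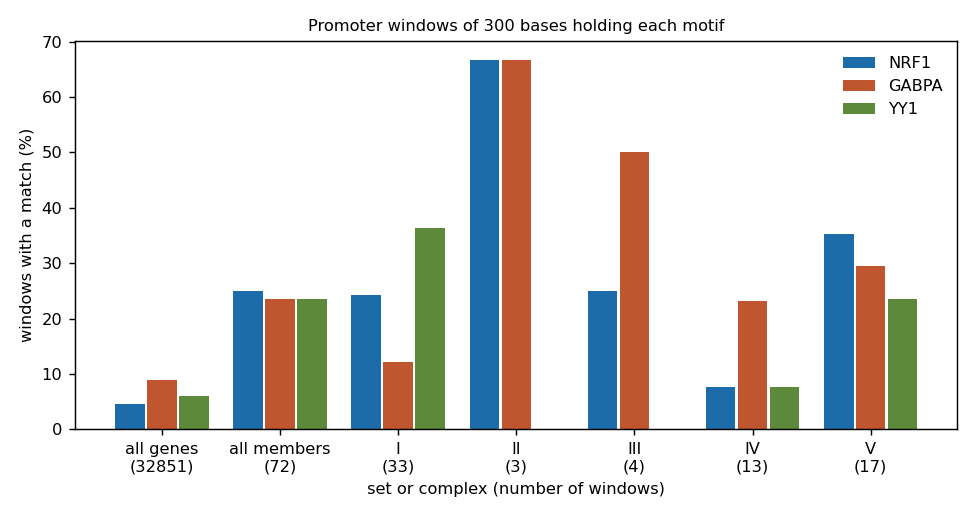
Share of promoter windows of 300 bases (vertical axis, percent) with at least 1 match to the NRF1, GABPA or YY1 motif, for all mouse windows, for the windows of the respiratory chain genes, and for each complex (number of windows in parentheses). Each motif is found in 23.6% to 25% of the respiratory chain windows and in 4.6% to 8.86% of all windows, and the bars of complexes II and III rest on 3 and 4 windows.

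The windows of 3 complex II genes and of Ndufa12 are printed from 250 bases before to 30 after the start, because Sdha and Ndufa12 are subunit genes called in more than 1 comparison and their windows differ in the motifs. Capitals mark motif matches. The Sdha window (chr13:74350211-74350490, minus strand) holds 3 NRF1 matches, starting 98, 55 and 10 bases before the transcription start. The Sdhd window (chr9:50603820-50604099, minus strand) holds 1 NRF1 match and 1 GABPA match, and the Sdhb window (chr4:140961021-140961300, plus strand) holds 1 GABPA match. The Ndufa12 window (chr10:94198785-94199064, plus strand) holds none of these motifs, nor do those of Ndufc2, Cox6b2 and Atp5s.
Sdha promoter: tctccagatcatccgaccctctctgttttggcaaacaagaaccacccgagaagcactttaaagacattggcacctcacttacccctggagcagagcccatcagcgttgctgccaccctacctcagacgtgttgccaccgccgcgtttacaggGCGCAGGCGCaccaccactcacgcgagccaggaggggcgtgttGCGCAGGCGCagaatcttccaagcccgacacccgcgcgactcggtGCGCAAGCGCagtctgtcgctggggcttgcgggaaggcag
Sdhd promoter: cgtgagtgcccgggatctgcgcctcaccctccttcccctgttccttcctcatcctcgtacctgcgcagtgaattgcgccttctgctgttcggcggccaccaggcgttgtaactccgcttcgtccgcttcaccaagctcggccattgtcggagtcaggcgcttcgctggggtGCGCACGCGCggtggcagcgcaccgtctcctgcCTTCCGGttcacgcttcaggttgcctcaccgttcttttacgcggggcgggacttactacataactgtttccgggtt
Sdhb promoter: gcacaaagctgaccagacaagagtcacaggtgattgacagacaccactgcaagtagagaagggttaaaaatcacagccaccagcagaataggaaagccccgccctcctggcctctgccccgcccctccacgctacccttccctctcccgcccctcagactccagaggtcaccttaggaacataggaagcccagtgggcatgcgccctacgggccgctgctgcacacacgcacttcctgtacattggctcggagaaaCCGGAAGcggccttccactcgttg
Ndufa12 promoter: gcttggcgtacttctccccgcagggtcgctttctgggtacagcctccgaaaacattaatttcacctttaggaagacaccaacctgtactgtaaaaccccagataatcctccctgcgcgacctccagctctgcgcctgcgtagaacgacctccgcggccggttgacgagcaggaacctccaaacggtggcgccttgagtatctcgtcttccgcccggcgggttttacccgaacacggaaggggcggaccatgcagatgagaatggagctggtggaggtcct

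Few respiratory chain genes were called against NT in any knockdown, which does not show that the others stayed at their NT level. After Ino80 siRNA, 6 of 81 (7.41%) were called at an adjusted p under 0.05, while 12.7 percent of all genes tested were called. Higher were 3 (Ndufa12, Ndufc2, Atp5s), beside 7.86 percent of all genes, and lower were 3, among them Sdha and Sdhc, beside 4.83 percent. After Ino80b siRNA, 4 of 81 (4.94%) were called, against 6.72 percent of all genes, with Ndufa12 and Atp5s higher (all genes 4.07 percent) and Sdha and Cox6b2 lower (2.65 percent). After Ino80c siRNA, 3 of 81 (3.7%) were called, all higher (Ndufa12, Atp5s, Cox4i2), against 6.8 percent of all genes (5.18 percent higher and 1.62 percent lower). After Ino80e siRNA no member was called, and the call rate over all genes was 0.00498 percent. There, 35 of 81 members (43.2%) had an unadjusted p under 0.05, against 28.6% of all genes, and the lowest adjusted p was 0.0748, for Atp5s. Under other processing this count of called members ran from 0 to 18, and the share of all genes called in those fits is not given here. In each knockdown the share of members called was below or near the share of all genes. The 4 comparisons use the same NT arrays, so a gene called in several of them was not measured independently.

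**Figure D2:**
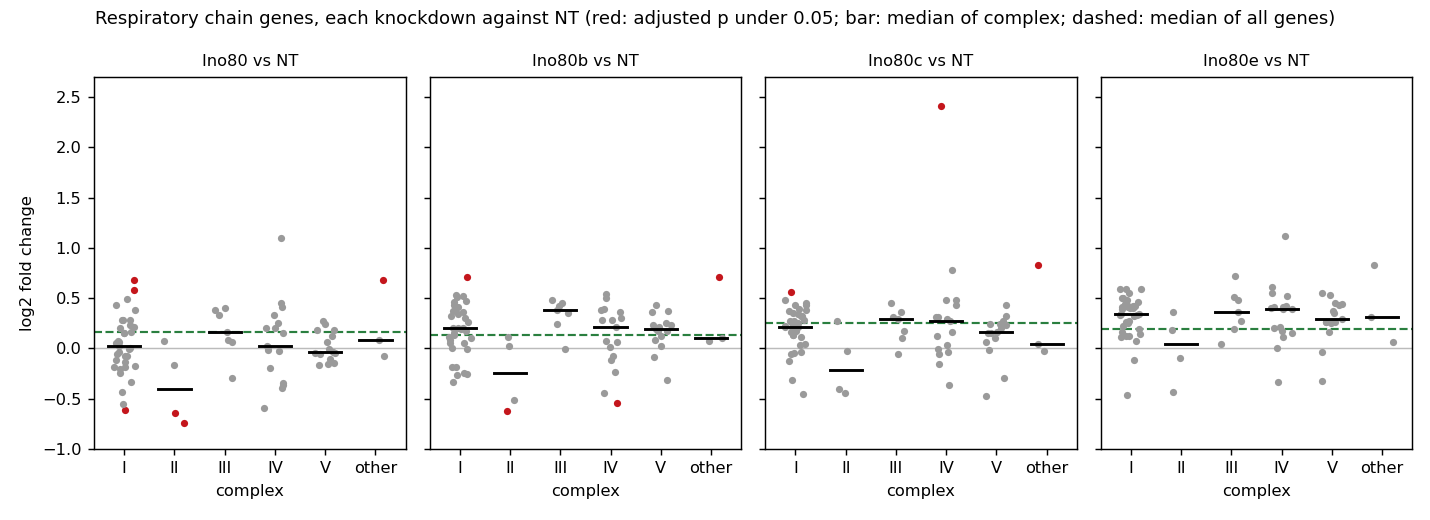
Log2 fold change of each respiratory chain gene (point) in each knockdown against NT, grouped by complex, with "other" for the 3 genes that are not subunits. Red points passed an adjusted p under 0.05, black bars are medians of a complex, and the dashed line is the median of all genes (0.17, 0.13, 0.26 and 0.19 from left to right). Complex II has the lowest median in all 4 panels, from -0.41 after Ino80 siRNA to 0.04 after Ino80e siRNA, over 4 genes.

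These counts moved with single arrays. For Ino80, most calls given above were lost without NT replicate 2 or either Ino80 array. Most were also lost without any 1 array of the groups outside the comparison, but not without NT replicate 1. The number of members called moved for Ino80b and Ino80c as well. For Ino80b, it was 7 without NT replicate 1, 2 without either Ino80 array and 0 without any other array. For Ino80c, it was 6 without NT replicate 1, 1 without any 1 of the Ino80 or Ino80e arrays, and 0 without NT replicate 2 or any 1 of the Ino80b or Ino80c arrays. With only the 4 arrays compared in the fit, no member and no gene of any kind was called. The direction of the genes called did not turn in any of these fits.

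Compared with all genes the members' median shifted little, while after Ino80e siRNA most members lay above NT. Their median log2 fold change was 0.03, 0.20, 0.21 and 0.34 for Ino80, Ino80b, Ino80c and Ino80e, beside all-gene medians of 0.17, 0.13, 0.26 and 0.19. Relative to all genes the members' median thus lay at -0.14, 0.07, -0.05 and 0.15. The Ino80b value turned to -0.0723 with quantile normalization and -0.0820 with cyclic loess, and the Ino80e value was -0.00445 with cyclic loess. Between 68 and 75 of the 81 members lay within 0.5 of the all-gene median in these 4 comparisons. On all 8 knockdown arrays, 14 members (17.3%) read above both NT arrays, against 19.4 percent of all genes, and 3, among them Cox6b2 and Sdha, read below both (3.7%), against 7.48 percent of all genes. Taken 1 knockdown at a time, both arrays lay above both NT arrays for 19, 43, 47 and 63 members in the order Ino80, Ino80b, Ino80c and Ino80e, beside 35.7, 37.8, 45 and 40.9 percent of all genes. Both lay below for 14, 13, 9 and 5 members, beside 18.6, 20.9, 15.8 and 17.1 percent. As shares of 81 the higher counts were 23.5%, 53.1%, 58% and 77.8%. The 95% interval of a member's log2 fold change, not adjusted for the number of genes, had a median half-width of 0.36 (from 0.28 to 1.28). A call at the adjusted threshold took a larger change with 2 arrays a group. The smallest change called for any gene tested was 0.43, 0.48, 0.49 and 3.84 for Ino80, Ino80b, Ino80c and Ino80e against NT.

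Complex II, succinate dehydrogenase, had the lowest values. Sdha, the flavoprotein that oxidises succinate, read 3.14 and 3.19 on the NT arrays, 2.51 and 2.34 after Ino80 siRNA and 2.60 and 2.48 after Ino80b siRNA. It read 2.67 and 2.78 after Ino80c siRNA and 2.77 and 2.67 after Ino80e siRNA. All 8 knockdown arrays were below both NT arrays. Sdha fell in the Ino80 group, where it was 1.67-fold lower (log2 fold change -0.74 ± 0.13 SE, adjusted p 0.0145), and in the Ino80b group, where it was 1.54-fold lower (-0.62 ± 0.13, adjusted p 0.0378). The values for Ino80c and Ino80e were -0.44 ± 0.13 each, with adjusted p of 0.0743 and 0.0981. In the Ino80 group the call was kept in 18 of 22 other fits, whose adjusted p ran from 0.003 to 0.187. In the Ino80b group it was kept in 10 of 22, with adjusted p from 0.009 to 0.229. In a bulk sample, fewer cells of a type and less RNA per cell cannot be told apart.

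Sdhc, a membrane anchor of complex II that binds haem, read 3.21 and 3.52 in NT, 2.68 and 2.75 after Ino80 siRNA and 2.78 and 2.91 after Ino80b siRNA. It read 2.88 and 3.04 after Ino80c siRNA and 3.21 and 3.31 after Ino80e siRNA, where the arrays lay within the NT range. Sdhc fell after Ino80 siRNA (-0.64 ± 0.15, adjusted p 0.0346), a call kept in 9 of 22 other fits. The corresponding values were -0.52 (adjusted p 0.0758) for Ino80b and -0.40 (adjusted p 0.121) for Ino80c. The remaining subunits did not pass the test in any comparison. Sdhb, the iron-sulfur subunit, had log2 fold changes of 0.07, 0.11, 0.27 and 0.36 in the order Ino80, Ino80b, Ino80c and Ino80e. Sdhd, the other membrane anchor, had -0.17, 0.03, -0.02 and 0.19 in that order. The flavoprotein and 1 anchor were thus called lower after Ino80 siRNA, whereas the iron-sulfur subunit and the other anchor lay within 0.2 of NT. Whether these subunits differed from each other was not tested.

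Embryonic stem cell and feeder cell markers moved in the same comparisons. Of 11 stem cell markers, 6, 4, 3 and 0 were called lower after Ino80, Ino80b, Ino80c and Ino80e siRNA, among them Esrrb, Nanog and Klf4 in the first 3, beside 4.83, 2.65, 1.62 and 0% of all genes. The linear levels of these markers summed to between 663 and 705 in NT, 445 and 535 in Ino80, 536 and 623 in Ino80b, 613 and 626 in Ino80c and 713 and 793 in Ino80e. Of 14 fibroblast feeder markers tested, 6, 2, 3 and 0 were called higher, beside 7.86, 4.07, 5.18 and 0.00498% of all genes, and their summed level was 31.9 to 33.5 in NT, 39.3 to 41.2 in Ino80, 26.7 to 32.5 in Ino80b, 28.0 to 32.8 in Ino80c and 23.5 to 26.2 in Ino80e. Between 12 and 15 of 16 feeder markers were well above background on an array, and the part of these shifts in the values above was not tested.

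**Figure D3:**
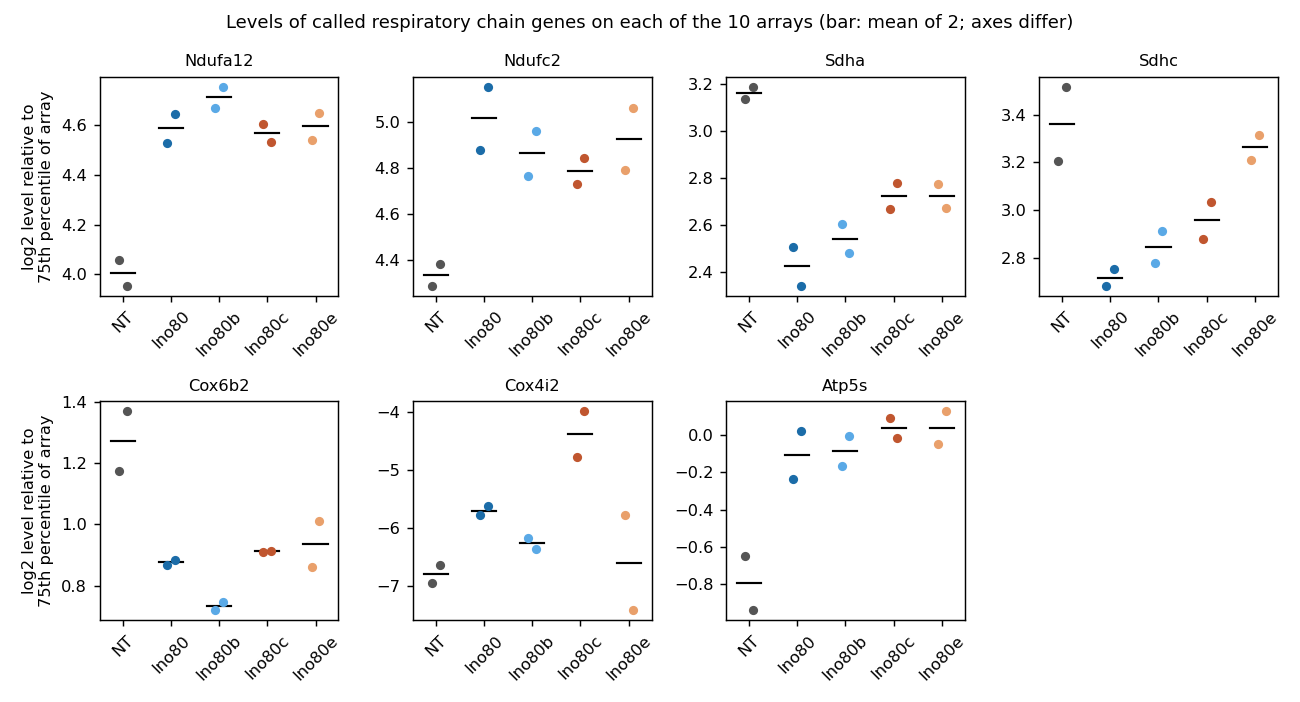
Log2 level relative to the 75th percentile of the array (vertical axes, which differ between panels) for 7 respiratory chain genes called in at least 1 comparison, on each of the 10 arrays. Points are single arrays and bars are group means of 2. All 8 knockdown arrays lie above both NT arrays for Ndufa12, Ndufc2 and Atp5s, and below both for Sdha and Cox6b2. Cox4i2 stands higher in the Ino80c group than in the others.

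In complex I, Ndufa12 and Ndufc2 were called higher. Ndufa12, an accessory subunit of the matrix arm, read 4.06 and 3.95 in NT, 4.53 and 4.65 after Ino80 siRNA and 4.67 and 4.75 after Ino80b siRNA. It read 4.61 and 4.53 after Ino80c siRNA and 4.54 and 4.65 after Ino80e siRNA, so every knockdown array was above both NT arrays. It rose 1.5-fold after Ino80 siRNA (0.58 ± 0.12, adjusted p 0.0255), 1.63-fold after Ino80b siRNA (0.71 ± 0.12, adjusted p 0.0258) and 1.48-fold after Ino80c siRNA (0.56 ± 0.12, adjusted p 0.0424). After Ino80e siRNA the value was 0.59 ± 0.12 with an adjusted p of 0.0791. These calls were kept in 8, 11 and 5 of 22 other fits for Ino80, Ino80b and Ino80c, and the adjusted p over these fits ran from 0.005 to 0.354.

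The array holds 3 probes for Ndufa12, and they read different sizes of change. The probe that represents the gene lies furthest 3′ (chr10:93780198-93780257, build mm7, plus strand). The other 2 lie at chr10:93758922-93758981 and chr10:93758942-93759001 and share 40 bases, marked in capitals. All are printed because the call rests on the first.
Ndufa12 A_52_P724940: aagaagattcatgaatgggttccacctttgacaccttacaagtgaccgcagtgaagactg
Ndufa12 A_51_P458538: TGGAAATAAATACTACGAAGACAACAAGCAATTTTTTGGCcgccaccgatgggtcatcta
Ndufa12 A_51_P458540: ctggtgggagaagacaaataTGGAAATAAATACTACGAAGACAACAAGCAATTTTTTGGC

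The log2 fold changes of the second printed probe were 0.46, 0.49, 0.36 and 0.39 in the order Ino80, Ino80b, Ino80c and Ino80e. Those of the third, which shares most of its bases with the second, were 0.22, 0.30, 0.16 and 0.18. All 3 probes pointed the same way, and with each probe tested by itself only the first passed the threshold.

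Ndufc2, an accessory membrane subunit, read 4.29 and 4.38 in NT and 4.88 and 5.15 after Ino80 siRNA, where it rose 1.6-fold (0.68 ± 0.16, adjusted p 0.0365), a call kept in 9 of 22 other fits. Its values were 0.53, 0.45 and 0.59 in the Ino80b, Ino80c and Ino80e groups, with adjusted p of 0.0841, 0.112 and 0.0916. Ndufb4 (4.48 and 4.50 in NT, 3.92 and 4.2 after Ino80 siRNA, 4.74 and 5.05 after Ino80e siRNA) was an accessory subunit with values on both sides of NT, at -0.44 for Ino80 and 0.41 for Ino80e, neither past the test, and it was chosen after its values were seen. Ndufb10, another accessory subunit, had the highest complex I value after Ino80e siRNA, 0.60 ± 0.17 (adjusted p 0.0955). Genes that did not pass included core subunits such as Ndufs1, which carries iron-sulfur clusters and is named here as an example outside the rule for named genes, at -0.01, 0.19, 0.27 and 0.33.

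Complex IV, cytochrome c oxidase, is built in part from subunits with tissue isoforms. Cox6b2, the testis isoform of subunit 6b, read 1.18 and 1.37 in NT and 0.72 and 0.75 after Ino80b siRNA, where it fell by 0.54 ± 0.12 (adjusted p 0.0486), a call kept in 8 of 22 other fits. It read 0.87 and 0.88 after Ino80 siRNA, 0.91 and 0.91 after Ino80c siRNA, and 0.86 and 1.01 after Ino80e siRNA, below both NT arrays in each case without passing the test. The common isoform Cox6b1 had log2 fold changes of -0.02, 0.07, 0.03 and 0.15 in the order Ino80, Ino80b, Ino80c and Ino80e, and none passed the test. Cox8c, the testis isoform of subunit 8, had -0.59, -0.44, 0.49 and 0.21, and did not pass the test either. The summed level of the germ cell markers was 3.62 to 3.90 in NT, 5.30 to 7.30 in Ino80, 4.67 to 5.29 in Ino80b, 5.86 to 6.67 in Ino80c and 4.81 to 5.97 in Ino80e. Of 11 germ cell markers tested, Ddx4 was called higher after Ino80 and Ino80c siRNA and Odf1 after Ino80c siRNA. Odf1 was well above background on the Ino80c arrays only, so filter and test used the same high readings. The part of germ cell markers in the values of Cox6b2 and Cox8c was not tested.

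Cox4i2, the lung and low-oxygen isoform of subunit 4, was near the floor of the array. It read -6.96 and -6.65 in NT, -5.79 and -5.62 after Ino80 siRNA and -6.17 and -6.36 after Ino80b siRNA. It read -4.78 and -4.00 after Ino80c siRNA and -5.78 and -7.43 after Ino80e siRNA. Only 5 of the 10 arrays were well above background for this probe, and neither NT array was. In the Ino80c group its mean was 4.25-fold above NT when each NT array was set to no less than its lowest signal well above background. The measured log2 fold change was 2.42 ± 0.50 (adjusted p 0.0402). The 4.25 allows for the floor and not for the error of the fit. The probe passed the filter on dim probes only through knockdown groups, so filter and test used the same high readings. The authors' deposited table, which is not background subtracted, gave this gene 0.61 on the log2 scale, the lowest value over 21 other fits, and the call was kept in 7 of them. Within the slide, Cox4i2 had an adjusted p of 0.164 for Ino80c against Ino80e. Only 1 of the 2 Ino80e arrays was well above background for it and the other read below both NT arrays, so no fold is given. The common isoform Cox4i1 had 0.20, 0.39, 0.17 and 0.42 against NT in the 4 groups and did not pass the test.

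The muscle isoforms did not pass the test in any comparison. Cox6a2, the heart and skeletal muscle isoform of subunit 6a, had 0.45, 0.30, 0.78 and 1.12 in the order given. Its probe was near the floor, at -6.04 and -5.50 in NT, and was well above background on 9 of the 10 arrays. After Ino80e siRNA its replicates read -5.23 and -4.08. The common isoform Cox6a1 had -0.03, 0.29, 0.30 and 0.39. Cox7a1, the muscle isoform of subunit 7a, had 0.21, -0.08, -0.15 and 0.61, the common isoform Cox7a2 had 0.16, 0.36, 0.28 and 0.41, and Cox7a2l, which joins complexes III and IV in supercomplexes, had -0.37, -0.23, -0.04 and 0.00. Cox8a, the common isoform of subunit 8, had -0.20, 0.01, -0.01 and 0.17. Ndufa4, first assigned to complex I and now counted with complex IV, had 0.25, 0.28, 0.31 and 0.39. The summed level of striated muscle markers was 1.69 to 1.72 in NT, 1.93 to 1.94 in Ino80, 2.07 to 2.28 in Ino80b, 2.58 to 2.59 in Ino80c and 1.87 to 1.90 in Ino80e, and between 12 and 16 of the 16 markers were well above background on an array. Tnni2 was called higher after Ino80 siRNA, Myh7 after Ino80b siRNA, and Myh7 and Myh4 after Ino80c siRNA. Their part in the values of the muscle isoforms was not tested.

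No gene of complexes III or V was called in any comparison. In complex III the largest value was that of Uqcrq, a small subunit, at 0.40, 0.48, 0.45 and 0.72 in the order Ino80, Ino80b, Ino80c and Ino80e, with adjusted p of 0.159, 0.118, 0.126 and 0.0841. Uqcrc1, core protein 1, was the only complex III gene with a negative value, at -0.30, -0.01, -0.06 and 0.05. The median of the 7 complex III genes was 0.16, 0.39, 0.29 and 0.36.

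In complex V, 3 genes encode the same mature subunit c of the proton-driven ring. Atp5g1 had -0.05, 0.23, 0.16 and 0.26, Atp5g2 had 0.19, 0.21, 0.10 and 0.26, and Atp5g3 had 0.24, 0.43, 0.43 and 0.53. The lowest complex V value was that of Atp5d, the delta subunit of the central stalk, at -0.48 ± 0.15 after Ino80c siRNA (adjusted p 0.0872). Atp5j, coupling factor 6 of the peripheral stalk, had the highest value after Ino80 siRNA, 0.28, and Atp5l, subunit g, the highest after Ino80e siRNA, 0.55.

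Atp5s was the member called in the same comparisons as Ndufa12. It read -0.65 and -0.94 in NT, -0.24 and 0.02 after Ino80 siRNA and -0.17 and -0.01 after Ino80b siRNA. It read 0.09 and -0.02 after Ino80c siRNA and -0.05 and 0.12 after Ino80e siRNA, above both NT arrays in every case. It rose by 0.68 ± 0.16, 0.71 ± 0.16 and 0.83 ± 0.16 in the Ino80, Ino80b and Ino80c groups (adjusted p 0.0377, 0.0484 and 0.0351), calls kept in 9, 8 and 11 of 22 other fits, and its value for Ino80e was 0.83 with an adjusted p of 0.0748. Its second probe gave 0.90, 0.58, 0.79 and 0.80. The other non-subunits, Ndufaf1 and Cox4nb, did not pass the test.

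The position of a probe along its transcript moved with the comparison to NT. Across the array, 4158 pairs of probes lay on the same RefSeq transcript at least 60 bases apart on the genome. The probe nearer the 5′ end had the lower log2 fold change in 65.0%, 69.7%, 65.7% and 67.9% of pairs for Ino80, Ino80b, Ino80c and Ino80e against NT. Within a slide the share was 36.3% for Ino80 against Ino80b and 38.8% for Ino80c against Ino80e. Among 13 respiratory chain genes with such a pair, the 5′ probe was lower in 10, 11, 10 and 10 against NT, and in 3 and 6 within a slide. The median difference between the probes over all pairs was -0.14, -0.20, -0.15 and -0.20 against NT, and 0.05 in each comparison within a slide.

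**Figure D4:**
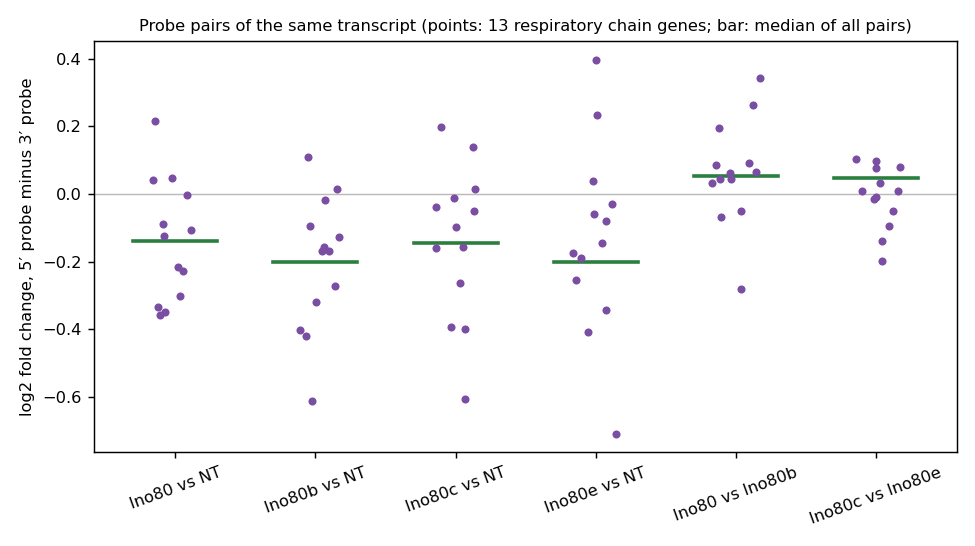
Difference in log2 fold change between the 5′ and the 3′ probe of the same transcript (vertical axis) in each comparison. Points are 13 respiratory chain genes and bars are medians over all 4158 pairs on the array. The bars lie between -0.20 and -0.14 in the comparisons with NT and at 0.05 within a slide.

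This difference touched members in the results above. Sdha is represented by its 5′ probe (chr13:71261221-71261280, build mm7, minus strand), and its 3′ probe gave -0.52, -0.45, -0.34 and -0.27, in the same direction but not past the threshold when tested by itself. Atp5b, the beta subunit that carries the catalytic sites of ATP synthase, was singled out after its values were seen, since its probes disagreed in sign. Its brightest and most 3′ probe gave -0.03, 0.17, 0.15 and 0.25. The middle probe (chr10:127586901-127586960, plus strand) gave -0.25, -0.16, -0.16 and -0.15, and the most 5′ probe, whose bases span an intron (chr10:127585810-127586488), gave -0.38, -0.44, -0.45 and -0.46. None of the 3 passed the threshold, and a different choice of probe would turn the sign of this gene in 3 of the 4 knockdowns. Uqcrc1 behaved likewise, with -0.63, -0.43, -0.32 and -0.30 on its 5′ probe. The part of probe position in the calls of Sdha, Ndufa12 and Atp5b was not tested. The Sdha probe behind the call and the 2 upstream Atp5b probes read as follows.
Sdha A_52_P109503: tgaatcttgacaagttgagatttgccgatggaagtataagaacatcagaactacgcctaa
Atp5b A_51_P207636: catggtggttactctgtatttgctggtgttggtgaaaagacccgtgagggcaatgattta
Atp5b A_52_P553841: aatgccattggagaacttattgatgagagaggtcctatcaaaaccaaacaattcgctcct

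Between knockdowns on the same slide no member was called. For Ino80 against Ino80b the call rate over all genes was 0.0796 percent at an adjusted p under 0.05. By the looser unadjusted p under 0.05, 2 members passed, and the share of all genes that did is not given here. The lowest adjusted p was 0.504, for Ndufb11, an accessory subunit of the membrane arm named here for that p (-0.54 ± 0.21). For Ino80c against Ino80e the rate over all genes was 0.0448 percent at the adjusted threshold. Here 5 members had an unadjusted p under 0.05, again without the share of all genes, and the lowest adjusted p was that of Cox4i2 given above. Other genes called against NT were further apart: Sdhc averaged 2.96 in the Ino80c group and 3.26 in the Ino80e group. Cox4i2, near the floor, averaged -4.39 and -6.60 in these groups. Sdha, Ndufa12 and Atp5s, each called against NT in several knockdowns, differed little here. Sdha differed by -0.12 (95% interval -0.42 to 0.18) between Ino80 and Ino80b and by 0.00 (-0.30 to 0.30) between Ino80c and Ino80e. Ndufa12 differed by -0.13 (-0.41 to 0.16) and by -0.03 (-0.31 to 0.26), and Atp5s by -0.02 (-0.40 to 0.36) and by 0.00 (-0.39 to 0.38). These intervals do not show that the knockdowns act alike.

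The members nevertheless leaned one way within a slide. Their median was -0.14 for Ino80 against Ino80b and -0.12 for Ino80c against Ino80e, beside all-gene medians of 0.01 and 0.02. For Ino80 against Ino80b 11 of 81 members lay above the all-gene median, and for Ino80c against Ino80e 5 of 81 did. Every complex had a median below that of all genes in both comparisons. Both Ino80 arrays lay below both Ino80b arrays for 32 members and above for 3, beside 19.8 and 20.8 percent of all genes. Both Ino80c arrays lay below both Ino80e arrays for 38 members and above for 2, beside 19.8 and 26.3 percent. The first lean rested on 1 array: relative to all genes it was -0.15 with all arrays, 0.01 without Ino80 replicate 1 and -0.29 without Ino80 replicate 2. The second was between -0.22 and -0.08 without any 1 array, but -0.03 after quantile normalization and -0.04 after cyclic loess.

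**Figure D5:**
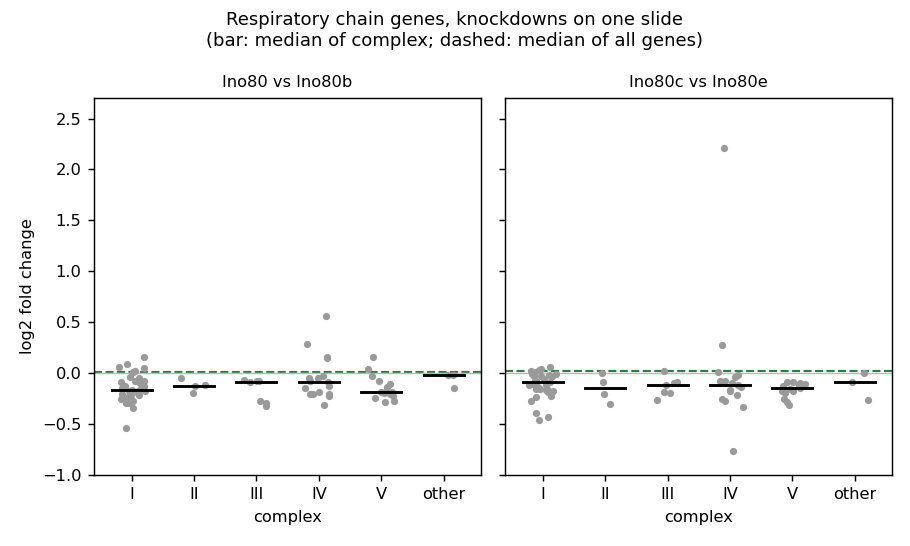
Log2 fold change of each respiratory chain gene (point) between 2 knockdowns on the same slide, grouped by complex. Black bars are medians of a complex and the dashed line is the median of all genes (0.01 left, 0.02 right). No point passed an adjusted p under 0.05, and the bars lie at or below -0.02 in each panel.

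The members also moved together between replicates of the same group. On Ino80 replicate 2, 75 of 81 members read higher than on Ino80 replicate 1, with a median difference of 0.23 while the median over all genes differed by -0.07. On replicate 2 of the Ino80b group 72 of 81 read higher, and 72 of 81 did so in the Ino80e group, with median differences of 0.13 and 0.14. In NT and Ino80c, 34 and 26 of 81 read higher on replicate 2. The median of the members relative to that of all genes was 5.90 and 5.78 on the NT arrays, 5.78 and 6.03 for Ino80, 5.98 and 6.07 for Ino80b, 5.95 and 5.93 for Ino80c, and 6.04 and 6.17 for Ino80e. The 2 Ino80 arrays thus spanned the NT values and exceeded them. The median shift of the Ino80 group given earlier comes from fold changes per gene, not from these medians per array, and the 2 measures need not share a sign. In size, that shift was no larger than the spread between the Ino80 replicates here.

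The genes were also divided by motif, with 17 tested genes holding each motif and 49 with a window but no match, and no test was made of the differences. Medians here are log2 fold changes relative to all genes. For the NRF1 motif, genes with and without a match had medians of -0.22 and -0.10 after Ino80 siRNA, 0.06 and 0.07 after Ino80b siRNA, -0.10 and -0.03 after Ino80c siRNA, and 0.07 and 0.18 after Ino80e siRNA. For the YY1 motif they were -0.23 and -0.10, 0.07 and 0.06, -0.03 and -0.05, and 0.17 and 0.20 in the same order. For the GABPA motif they were -0.11 and -0.14, 0.04 and 0.07, -0.03 and -0.06, and 0.12 and 0.20. Genes with an NRF1 match thus had the lower median in all 4 knockdowns, though after Ino80b siRNA the values were 0.063 and 0.068. For the other motifs the order varied between knockdowns, with YY1 values of 0.070 and 0.063 after Ino80b siRNA. The 4 comparisons share the NT arrays, so the same order in all of them is not independent agreement. Within a slide, Ino80 against Ino80b gave -0.22 and -0.10 for the YY1 motif, -0.18 and -0.14 for NRF1 and -0.15 and -0.14 for GABPA. Ino80c against Ino80e gave -0.15 and -0.14 for YY1, -0.15 and -0.14 for NRF1 and -0.18 and -0.14 for GABPA.

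Other genes of mitochondrial energy metabolism were read from lists of the pathway, and the share called in each list was below that of all genes after Ino80 siRNA (12.7%), Ino80b siRNA (6.72%) and Ino80c siRNA (6.8%). Of 44 electron carriers and assembly factors tested, 3 rose and 1 fell after Ino80 siRNA (9.09%), and 1 was called after each of Ino80b and Ino80c siRNA (2.27%). Tmem70, which helps assemble ATP synthase, rose by 1.09 ± 0.20, Cox18, which inserts a complex IV subunit into the membrane, by 1.01 ± 0.21, and Surf1, an assembly factor of complex IV, by 0.82 ± 0.14. Uqcc1, an assembly factor of complex III, fell by 0.59 ± 0.12. Surf1 also rose after Ino80b siRNA (0.87 ± 0.14), and Oxa1l, the inner membrane insertase, fell after Ino80c siRNA (-0.99 ± 0.21).

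Among 18 regulators of respiratory gene transcription, Esrrb, an orphan nuclear receptor that is also a stem cell marker, fell in the first 3 knockdowns (-1.61, -1.49 and -1.34), where 11.1%, 5.56% and 5.56% of the list were called. Of 25 genes of the tricarboxylic acid cycle and pyruvate dehydrogenase, Suclg2 fell (-0.78) and Dlst rose (0.51) after Ino80 siRNA, and Ogdh fell after Ino80c siRNA (-0.88), which made 8% and 4% of the list. Of 78 mitochondrial ribosomal proteins, Mrps27 and Mrps18b fell after Ino80 siRNA (-0.79 and -0.66) and after Ino80b siRNA (-0.80 and -0.57), while Mrpl48 rose in the former (0.57) and Mrps34 in the latter (0.76), which made 3.85% of the list in each. Of 26 genes that maintain or express mitochondrial DNA, Polg2 rose after Ino80 siRNA (0.54, 3.85% of the list), and of 32 genes of import and cristae, Phb rose after Ino80b siRNA (0.63, 3.12% of the list). None of the genes of these lists was called after Ino80e siRNA or between knockdowns on a slide.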

How the data were processed

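Gene expression was measured on 10 Agilent 4x44K arrays read in 1 colour. Groups and replicate numbers came from the labels. The members, gene lists and motifs were chosen with earlier results of these data known. Feature Extraction 9.5.3.1 read the spots, per the file headers. The deposited scanner files give each spot's intensity as a processed signal, background-subtracted and not scaled between arrays. A further set of log2 values deposited by the authors equals each spot's log2 mean signal shifted by a constant that differs between arrays, and the origin of the constants is unknown.

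Control spots and outlier spots were left out and spots of a probe averaged. Log2 processed signals minus each array's 75th percentile were fitted with limma 3.58.1 (lmFit, eBayes; R 4.3.3, data.table package version 1.17.8), on all 10 arrays with group as the only term. Probes were kept where both arrays of some group marked them well above background, which left 20088 genes after each gene was taken by its brightest probe. P-values are two-sided, adjusted by Benjamini-Hochberg over all genes, and called under 0.05. Errors are standard errors of the fit. The number of arrays, not a read depth, limits precision. The script was tested on simulated data. Promoter windows are RefSeq's, on GRCm38.p6, and the scanner files give probe positions on mm7. Named genes are those called, the highest and lowest of each complex in each knockdown, the succinate dehydrogenase genes, the isoform families and the called genes of the lists, with a few others said to be chosen after their values were seen. Some called genes are not reported here. The figures were drawn with matplotlib 3.10.9.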

Additional observations from a re-analysis of the deposited data

How the results depend on the processing

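Over 22 other fits per gene, no named gene's called log2 fold change changed sign. The numbers of called members depended on the setting. The share of all genes called in each setting is not given beside them, so a larger number is not a result about the members alone. For Ino80 (6 called) the count was 10 with normexp background correction, 11 with quantile normalization, 12 with the authors' deposited table and 10 with cyclic loess, an alternative chosen after seeing the data. It was 1 with median scaling, 1 without the filter on dim probes, 0 under array weighting and 0 in a fit of just the 4 arrays, and from 0 to 6 without 1 array. For Ino80b (4 called) it was 9 with normexp, 14 with a trended and robust prior, 2 with every probe tested on its own, 1 with array weights, and 0 with median scaling, no filter, the mean of a gene's probes or only the arrays compared, and from 0 to 7 without 1 array. For Ino80c (3 called) it was 9 with normexp, 9 with the authors' table, 7 with the trended prior, 1 with cyclic loess, and 0 with median scaling, no filter, array weights or only the arrays compared, and from 0 to 6 without 1 array. For Ino80e (0 called) it was 18 with normexp, 11 with the trended prior, 4 with the authors' table and 2 with probes well above background on all arrays. No setting called a member within a slide.

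Samples share replicate numbers, but the labels do not say that a number marks a shared day. Deviations of same-numbered samples correlated above 0.1 in 8 of 10 pairs of groups (up to 0.32), but not for Ino80c with NT (0.03) or with Ino80 (0.00). Pairing was accepted only where every pair exceeded 0.1, so the numbers were not used as pairs, and a shared effect among the other groups was not excluded. With the replicate number as a block, 11, 8, 8 and 7 members were called for Ino80, Ino80b, Ino80c and Ino80e, and 0 within a slide. These numbers too stand without the share of all genes.

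The members' median relative to all genes was -0.0723 for Ino80b with quantile normalization and -0.0820 with cyclic loess, against 0.07. For Ino80e it was -0.00445 with cyclic loess, against 0.15. For Ino80c against Ino80e it was -0.0336 and -0.0401 with these settings, against -0.14. Scaling to the array median moved the all-gene median for Ino80c from 0.26 to 0.01. The causes were not tested.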
